A study of Homo sapiens with 2 samples.

Results

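NEAT1 and MALAT1, a pair of long non-coding RNAs transcribed next to each other on chromosome 11, and SFPQ, NONO, PSPC1 and TARDBP, which encode proteins found in paraspeckles, were examined in BFTC 905, an established human bladder cancer line. The genes were taken by symbol, and all 6 were present among the 55771 genes of the deposited tables. The set was chosen by the NEAT1 level, which was seen to be about 2-fold higher with ANGPTL4, so the values of that contrast below are a description. The ANGPTL4 library came from stably transfected cells carrying a plasmid that overexpresses ANGPTL4, a secreted inhibitor of lipoprotein lipase. The vector control library came from stably transfected cells carrying pcDNA3.1-myc-His (-) A without an insert. Both were selected with 400 ug/ml G418 and grown in RPMI-1640 with serum, and whether a library came from 1 clone or a pool of clones is not given in the sources used here. Each group has a single library, so the differences lack a replicate check, and no p-value was computed.

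Paraspeckles are nuclear bodies built on NEAT1 RNA. The gene gives a short polyadenylated form and a long form that shares its start, and the long form is the scaffold on which SFPQ and NONO assemble. PSPC1 is their relative in the same protein family, and TARDBP encodes TDP-43, an RNA-binding protein that prefers UG repeats and bears on which NEAT1 form is made. MALAT1 is held in a different compartment, the nuclear speckles that store splicing factors. The long NEAT1 form and MALAT1 end without a poly(A) tail of the usual kind, in a triple helix formed by U-rich stretches and an A-rich tract.

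The sequence features through which these RNAs are processed and bound are shown here from the GENCODE 29 transcripts (GRCh38, plus strand, written with T for U), because a level over the whole gene does not separate them. The long NEAT1 transcript, at chr11:65422798-65445540, is 22743 bases long in 1 exon, and the furthest of the other 7 annotated NEAT1 transcripts ends at its base 3716. The first stretch below spans that end, at chr11:65426453-65426542, with the poly(A) signal AATAAA in capitals. The next, at chr11:65444239-65444346, holds a TG repeat in capitals, the kind of sequence TDP-43 binds. The remaining pair are the last 105 bases of that transcript, at chr11:65445436-65445540, and the matching 105 bases of the 8708-base MALAT1 transcript, at chr11:65506012-65506116, with the U-rich stretches and the A-rich tract in capitals.
NEAT1 end of the short form: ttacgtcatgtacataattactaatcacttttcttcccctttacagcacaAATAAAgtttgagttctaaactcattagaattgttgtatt
NEAT1 TG repeat: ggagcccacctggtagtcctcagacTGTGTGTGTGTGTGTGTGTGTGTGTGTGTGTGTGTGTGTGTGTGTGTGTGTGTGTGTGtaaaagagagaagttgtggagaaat
NEAT1 end of the long form: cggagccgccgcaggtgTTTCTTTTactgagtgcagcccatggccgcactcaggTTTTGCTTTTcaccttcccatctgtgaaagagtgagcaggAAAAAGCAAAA
MALAT1 triple helix: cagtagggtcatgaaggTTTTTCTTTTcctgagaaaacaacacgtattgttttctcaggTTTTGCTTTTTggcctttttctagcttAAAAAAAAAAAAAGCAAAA

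Both RNAs carried U-rich stretches followed by an A-rich tract that ended in the same letters, and they differed in their UG repeats. On the transcript strand the long NEAT1 form held 7 runs of TG repeated at least 4 times, and the longest, shown above, was 58 bases or 29 repeats starting at base 21467. The MALAT1 transcript held 0 such runs, and its longest TG run was 6 bases. Of 47 GENCODE lincRNA transcripts of at least 8000 bases, 26 held such a run (55.3%), and the run in NEAT1 was the longest among them. Of the 8 AATAAA matches in the long NEAT1 form, those at bases 1458 and 3706 lay within the span of the short form.

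NEAT1 was at 87.4 RPKM (reads scaled to exon length in kilobases and to library total) in the ANGPTL4 library and at 44.0 RPKM in the vector control library. The level was thus 1.98 times as high with ANGPTL4, with a 95% interval of 1.75 to 2.25 that covers counting error only, as do all intervals here. On the log2(RPKM + 1) scale, used for every call of size because it damps the differences of low genes, the ratio was 0.97, past 1.5-fold and just short of 2-fold. It ranked 153 from the top among 11801 measured genes, a measured gene being one that reached 1 RPKM in either library. In bulk RNA, fewer cells with a transcript and less of it per cell cannot be told apart. Of measured genes 3.08% were higher by 1.5-fold or more and 9.25% lower, while 1.19% were higher and 1.92% lower by 2-fold or more. NEAT1 was the only 1 of the 6 members past 1.5-fold in either direction, and that NEAT1 itself passed follows from how the set was made.

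MALAT1 was at 35.1 RPKM in the ANGPTL4 library and at 35.3 RPKM in the vector control library, a ratio of 0.995 (0.791 to 1.25) and a log2 ratio of -0.01. Its levels in the 2 libraries differed by less than the counting error. Of the pair, then, NEAT1 differed between the libraries by more than counting error, while MALAT1, which begins 52222 bases downstream of its end, lay at nearly the same level in both. Inside the ANGPTL4 library NEAT1 was 2.49 times the level of MALAT1, against 1.25 times in the vector control library. That comparison does not depend on the library total by which RPKM is scaled, and the NEAT1 to MALAT1 ratio was 1.99 times as high with ANGPTL4 (1.54 to 2.59).

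**Figure D1:**
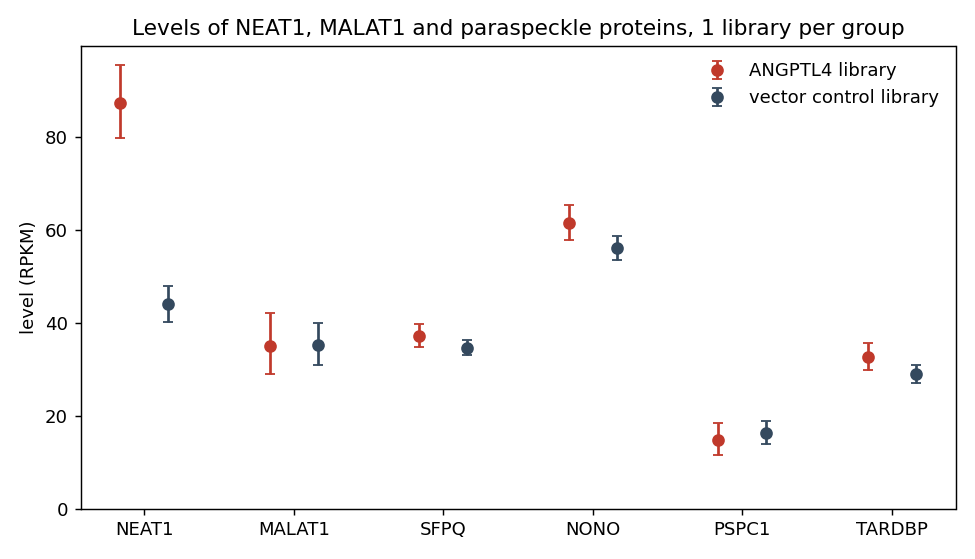
Level of each member in RPKM in the ANGPTL4 library (red, left) and the vector control library (blue, right), 1 library per group, with 95% counting intervals. NEAT1 is at 87.4 RPKM with ANGPTL4 and 44.0 RPKM in the control, and the intervals of the other 5 members overlap between the libraries.

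Of the paraspeckle proteins, SFPQ, an RNA- and DNA-binding protein of the DBHS family, was at 37.2 RPKM in the ANGPTL4 library and at 34.6 RPKM in the vector control library. From 894 and 1691 reads the ratio was 1.07 (0.990 to 1.17). NONO, its usual partner, was the most abundant of the protein genes, at 61.5 RPKM in the ANGPTL4 library and 56.1 RPKM in the vector control library. From 1052 and 1950 reads its ratio was 1.10 (1.02 to 1.18). The pair kept their proportion, since SFPQ stood at 0.606 of the NONO level in the ANGPTL4 library and at 0.618 in the vector control library.

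PSPC1, the least abundant of the 6, was at 14.7 RPKM in the ANGPTL4 library and at 16.3 RPKM in the vector control library, a ratio of 0.903 (0.680 to 1.19). It was the only protein member with a lower value with ANGPTL4, and its interval included 1. TARDBP was at 32.7 RPKM in the ANGPTL4 library and at 29 RPKM in the vector control library, a ratio of 1.13 (1.01 to 1.26). The intervals of NONO and TARDBP lay just above 1, but these are differences of at most 1.13-fold between single libraries. That of NONO holds for its GENCODE exon length of 5292 bases and would be wider at 2646 bases, which also fits. The log2 ratios of SFPQ, NONO, PSPC1 and TARDBP were 0.10, 0.13, -0.14 and 0.17, where the median over all measured genes stood at -0.11.

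By level in the ANGPTL4 library the order was NEAT1, NONO, SFPQ, MALAT1, TARDBP and PSPC1. In the vector control library NONO came first and NEAT1 second, followed by MALAT1, SFPQ, TARDBP and PSPC1. The intervals of MALAT1 and SFPQ overlapped in both libraries, so these neighbours in the order were not separated, and that of TARDBP overlapped both in the ANGPTL4 library and that of MALAT1 in the vector control library. Of the 15 pairs of members, the ratio of one to the other differed between the libraries by more than counting error for 5. NEAT1 was in each of them, which follows from the choice of the set by its level, so these pairs are a description. For NEAT1, MALAT1, PSPC1 and TARDBP these intervals rest on the smallest number of reads that fits. The count of 5 is therefore a lower bound, and pairs without NEAT1 may differ too at a larger fitting length. Relative to NONO, NEAT1 stood at 1.42 in the ANGPTL4 library and at 0.785 in the vector control library, a 1.81-fold difference (1.56 to 2.10). Relative to SFPQ it stood at 2.35 in the ANGPTL4 library and at 1.27 in the vector control library (1.85-fold, 1.59 to 2.15).

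**Figure D2:**
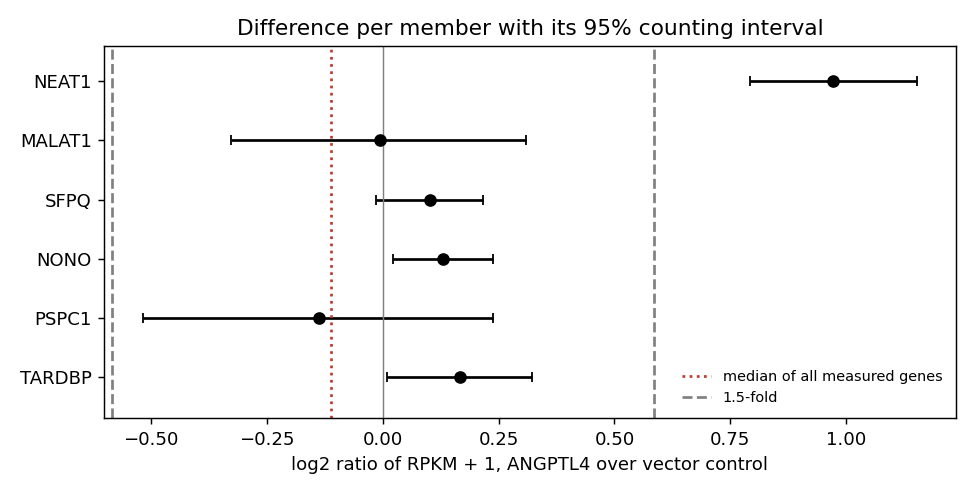
Log2 ratio of RPKM + 1, ANGPTL4 over vector control, for each member with its 95% counting interval. NEAT1 lies at 0.97, beyond the dashed 1.5-fold lines, and the other 5 lie between -0.14 and 0.17. The dotted median of all measured genes is at -0.11. The intervals of SFPQ, NONO and TARDBP lie above that median, and those of MALAT1 and PSPC1 include it.

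The exon length behind the NEAT1 value was examined, because a gene-level value does not say which form was counted. RPKM values are whole reads divided by a length, and at the 22743 bases of the long transcript the NEAT1 values came to 6425.39 reads in the ANGPTL4 library and 6581.79 in the vector control library, which are not whole. The full annotated region of 22767 bases (chromosome 11, 65190245 to 65213011, hg19) gave 6432.17 reads and 6588.73 reads. Whole reads in both libraries were reached at 1745 bases and its multiples, 13 lengths in all, of which the longest was 22685. The length used by the authors was therefore neither that of the long transcript nor that of the region, and it is known only to be 1 of these 13.

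At the inferred depths, the reads behind NEAT1 were at least 493 in the ANGPTL4 library and at least 505 in the vector control library, and at most 6409 and 6565. NEAT1 thus held 0.0152% to 0.198% of reads in the ANGPTL4 library and 0.00768% to 0.0999% in the vector control library. The ratio between the libraries does not depend on which length is right, whereas its level is a level over that length. Short and long forms cannot be told apart in these values. MALAT1 (chromosome 11, 65265233 to 65273940, hg19) showed the same feature, since its 8708 bases gave 988.20 reads and 2018.63 reads, and whole reads came at 1031 bases and its multiples. Its reads were at least 117 in the ANGPTL4 library and 239 in the vector control library. The intervals given for NEAT1, MALAT1, PSPC1 and TARDBP rest on the smallest number of reads that fits, so they are if anything too wide, while the GENCODE exon lengths of SFPQ and NONO, 7426 and 5292 bases, gave whole reads. For NONO, 2646 bases fitted as well, so its interval may be too narrow.

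No other row shared the NEAT1 region. The other members were overlapped by 5 rows and had 6 pseudogene rows named after them, and all of these were listed at 0 in both libraries. Measured genes were also split into 10 bins of equal size by GENCODE exon length. NEAT1 fell in the bin with the longest exons, whose median log2 ratio was -0.06, against -0.12 in the bin with the shortest. Its log2 ratio less the median of that bin was 1.04. The GENCODE length of 22767 bases is not among those that fit the NEAT1 values, so a shorter length could place NEAT1 in another bin.

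Among long non-coding genes with at least 10 RPKM in a library, NEAT1, by whose level the set was chosen, had the highest log2 ratio of 20. Of these 8 were higher and 12 lower with ANGPTL4, with a median of -0.09, close to the 35.6% higher and 64.4% lower and the median of -0.11 among all measured genes. The counts of the lists below are to be read beside those values. LINC01106 followed 2 places below at 17.9 RPKM in the ANGPTL4 library and 10.7 RPKM in the vector control library, and the imprinted RNA H19 was at 1483 RPKM and 981 RPKM. MALAT1 held rank 9. At the lower end DANCR was at 18.8 RPKM in the ANGPTL4 library and 25.4 RPKM in the vector control library, and the snoRNA host gene GAS5 at 23.4 RPKM and 34.0 RPKM.

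**Figure D3:**
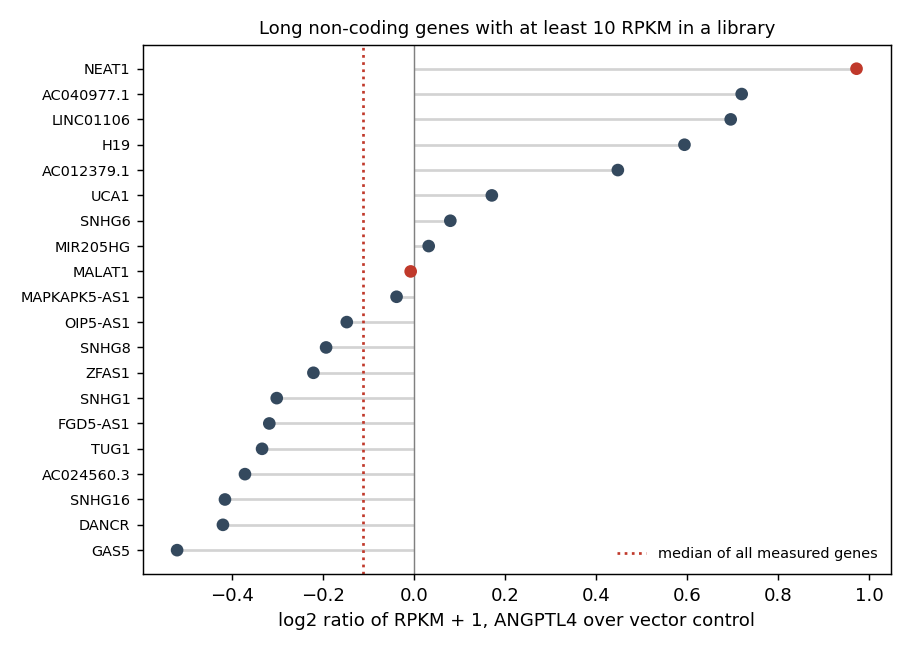
Log2 ratio of RPKM + 1, ANGPTL4 over vector control, for the 20 long non-coding genes with at least 10 RPKM in a library. NEAT1 is at the top at 0.97 and MALAT1, also in red, is ninth at -0.01.

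Other long non-coding RNAs were listed as nuclear or as exported, and where they lie in these cells was not measured. Of those listed as nuclear, TUG1 alone had a ratio interval that excluded 1 at the reads used. The intervals of CCAT1, JPX and OIP5-AS1 rest on the smallest number of reads that fits, so they may be too wide. Of 12 on that list 5 were measured, 3 higher and 2 lower, none by 1.5-fold, with a median log2 ratio of 0.05. CCAT1 was at 4.64 RPKM in the ANGPTL4 library and 3.64 RPKM in the vector control library, and JPX, a regulator of X inactivation, at 1.12 RPKM and 0.859 RPKM. TUG1 was lower, at 19.3 RPKM in the ANGPTL4 library and 24.5 RPKM in the vector control library, as was OIP5-AS1 at 10.7 RPKM and 12.0 RPKM. The interval of the ratio was 0.700 to 0.879 for TUG1, and it included 1 for CCAT1 (0.793 to 2.02), JPX (0.649 to 2.53), OIP5-AS1 (0.795 to 1.01) and PVT1 (0.812 to 1.33), so the directions of these are not settled. Of long non-coding RNAs listed as cytoplasmic or exported, snoRNA host genes among them, 3 of 13 were higher and 10 lower, with a median of -0.25 and H19 past 1.5-fold. In that list LINC00152 was at 6.53 RPKM in the ANGPTL4 library and 4.48 RPKM in the vector control library, and CRNDE at 1.10 RPKM and 1.89 RPKM, from at least 4 reads and 14 reads. All 12 small structured RNAs looked up, among them the nuclear RN7SK and the cytoplasmic RN7SL1, were listed at 0 in both libraries, and whether poly(A) RNA was selected is not given in the sources used here.

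The genes beside NEAT1 and MALAT1 were compared next, to see whether the difference extended along the chromosome. Within 100 kb of either gene lay 19 rows including the pair, of which 10 were measured, and 8 of these 10 differed by under 1.5-fold. The nearest measured gene upstream of NEAT1, FRMD8, was at 9.75 RPKM in the ANGPTL4 library and 12.0 RPKM in the vector control library (ratio 0.812, 0.657 to 0.999). DPF2, a subunit of a chromatin remodelling complex, was at 13.4 RPKM in the ANGPTL4 library and 12.8 RPKM in the vector control library (ratio 1.04, 0.913 to 1.19).

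Downstream of MALAT1, LTBP3, a binding protein of latent TGF-beta, was at 12.0 RPKM in the ANGPTL4 library and 10.3 RPKM in the vector control library. EHBP1L1 was at 18.1 RPKM and 14.98 RPKM in the same order of libraries, and the kinase gene MAP3K11 at 6.78 RPKM and 8.09 RPKM. The higher level of NEAT1 was thus not shared by its measured neighbours. FAM89B was the other exception, in the opposite direction, at 1.06 RPKM from 5 reads in the ANGPTL4 library and 5.53 RPKM from 53 reads in the vector control library (ratio 0.192, 0.0598 to 0.476). Its region overlaps that of SSSCA1, which was at 15.9 RPKM in the ANGPTL4 library and 20.9 RPKM in the vector control library, so reads of that pair are uncertain. AP000769.1, which lies between NEAT1 and MALAT1, was listed at 0 in the ANGPTL4 library and at 0.659 RPKM in the vector control library.

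**Figure D4:**
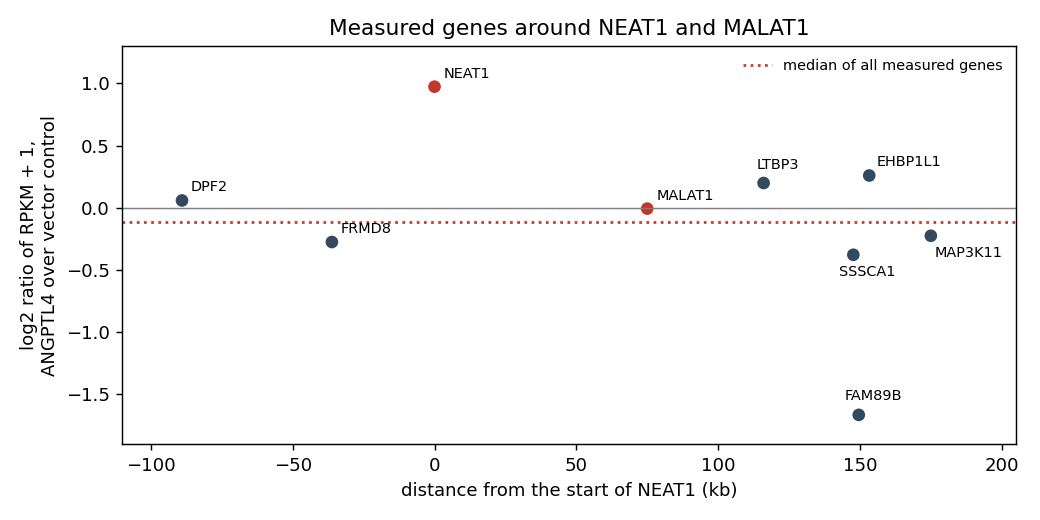
Log2 ratio of RPKM + 1, ANGPTL4 over vector control, of measured genes within 100 kb of NEAT1 or MALAT1 (both red), by distance from the start of NEAT1 in kb. NEAT1 at 0.97 is the highest point, and FAM89B, from 5 and 53 reads, is the lowest.

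Of the 8 proteins that paraspeckles need to form, SFPQ and NONO among them, 6 were higher and 2 lower with ANGPTL4. The median log2 ratio was 0.11, against -0.11 for all measured genes. HNRNPH3 was at 38.7 RPKM in the ANGPTL4 library and 29.1 RPKM in the vector control library (ratio 1.33, 1.20 to 1.47). SMARCA4, the ATPase of a chromatin remodelling complex, was at 63.0 RPKM in the ANGPTL4 library and 62.8 RPKM in the vector control library. The ratio intervals of SFPQ, DAZAP1 and SMARCA4, all counted as higher, included 1 at the reads used. The only gene of the list past 1.5-fold was RBM14, a coactivator that bridges paraspeckle proteins, at 4.48 RPKM in the ANGPTL4 library and 7.38 RPKM in the vector control library (ratio 0.607, 0.443 to 0.819). The regions of RBM4 and of the read-through RBM14-RBM4 overlap it, and the read-through was at 1.20 RPKM in the ANGPTL4 library and 0.531 RPKM in the vector control library, so the reads of this locus are uncertain.

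Of the other paraspeckle proteins 29 of 32 listed were measured, PSPC1 and TARDBP among them. Of these 18 were higher and 11 lower, none by 1.5-fold, with a median log2 ratio of 0.04. UBAP2L, which is also known from stress granules, was at 47.5 RPKM in the ANGPTL4 library and 32.1 RPKM in the vector control library (ratio 1.48, 1.37 to 1.60), and HNRNPR at 27.2 RPKM and 20.4 RPKM (ratio 1.34, 1.22 to 1.47). At the lower end MATR3, a protein of the nuclear matrix, was at 18.0 RPKM in the ANGPTL4 library and 22.7 RPKM in the vector control library (ratio 0.794, 0.733 to 0.860), and FIGN at 1.37 RPKM and 2.02 RPKM. The log2 ratio of NEAT1, by which the set was chosen, was higher than that of every measured member of the protein lists. At rank 153 among 11801 measured genes it lay above most genes of any kind, so this says little about these proteins.

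Factors that bear on the choice between the short and the long NEAT1 form differed in both directions. Of 7 measured, 3 were higher and 4 lower, none by 1.5-fold, with a median log2 ratio of -0.03. HNRNPK, which favours the long form, was at 91.7 RPKM in the ANGPTL4 library and 102.5 RPKM in the vector control library (ratio 0.894, 0.842 to 0.950). NUDT21 and CPSF6, subunits of the cleavage factor that favours the short form, were at 40.7 RPKM and 12.6 RPKM in the ANGPTL4 library and at 39.5 RPKM and 13.4 RPKM in the vector control library. The Integrator subunit INTS1 had the lowest log2 ratio of the list, at 15.8 RPKM in the ANGPTL4 library and 20.9 RPKM in the vector control library (ratio 0.756, 0.680 to 0.839). The intervals of INTS1 and HNRNPK thus lay below 1 and that of TARDBP, given above, lay above 1. INTS12 was at 4.37 RPKM in the ANGPTL4 library and 4.06 RPKM in the vector control library.

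Of 12 transcription factors reported upstream of NEAT1, 10 were measured, 7 higher and 3 lower, none by 1.5-fold, with a median log2 ratio of 0.11. HIF1A, the hypoxia-inducible factor subunit, was at 124.2 RPKM in the ANGPTL4 library and 97.6 RPKM in the vector control library (ratio 1.27, 1.20 to 1.34). EPAS1, the related hypoxia factor that acts on NEAT1, was lower, at 44.3 RPKM in the ANGPTL4 library and 52.5 RPKM in the vector control library (ratio 0.844, 0.784 to 0.907), as was STAT3 at 28.5 RPKM and 34.1 RPKM. RNA levels do not show the activity of these factors, which was not measured.

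Genes of speckle proteins, the compartment in which MALAT1 lies, differed in both directions. Of 17 measured, 10 were higher and 7 lower, none by 1.5-fold, with a median log2 ratio of 0.13. RBM25 was at 17.9 RPKM in the ANGPTL4 library and 12.6 RPKM in the vector control library (ratio 1.42, 1.27 to 1.59) and the SR protein SRSF5 at 24.8 RPKM and 18.5 RPKM. SRSF1, which binds MALAT1, was at 19.2 RPKM in the ANGPTL4 library and 28.0 RPKM in the vector control library (ratio 0.684, 0.582 to 0.802), and SRSF6 at 18.0 RPKM and 23.1 RPKM. SR protein genes thus lay at both ends of the list.

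Of proteins that process the MALAT1 end or bind its triple helix, 2 of 6 were higher and 4 lower, with a median log2 ratio of -0.07. METTL16, which binds the triple helix, was at 5.12 RPKM in the ANGPTL4 library and 3.90 RPKM in the vector control library (ratio 1.31, 1.06 to 1.62), and DGCR8 at 4.27 RPKM and 3.83 RPKM. RPP30 and RPP38, subunits of the RNase P that cuts off the MALAT1 tail, were at 4.01 RPKM and 2.40 RPKM in the ANGPTL4 library and at 5.05 RPKM and 2.84 RPKM in the vector control library. METTL16 alone of the 6 had a ratio interval that excluded 1 at the reads used. Those of DGCR8 (0.866 to 1.43), RPP30 (0.614 to 1.02) and RPP38 (0.431 to 1.59) included it, so their directions are not settled. The interval of RPP30 rests on the smallest number of reads that fits and may be too wide. Of the 8 RNA-binding proteins grouped with TARDBP through amyotrophic lateral sclerosis, 6 were higher and 2 lower, with a median of 0.18. ATXN2 was at 7.44 RPKM in the ANGPTL4 library and 5.37 RPKM in the vector control library, TAF15 at 47.7 RPKM and 37.7 RPKM, and TIA1, a stress granule protein, at 2.95 RPKM and 4.26 RPKM.

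**Figure D5:**
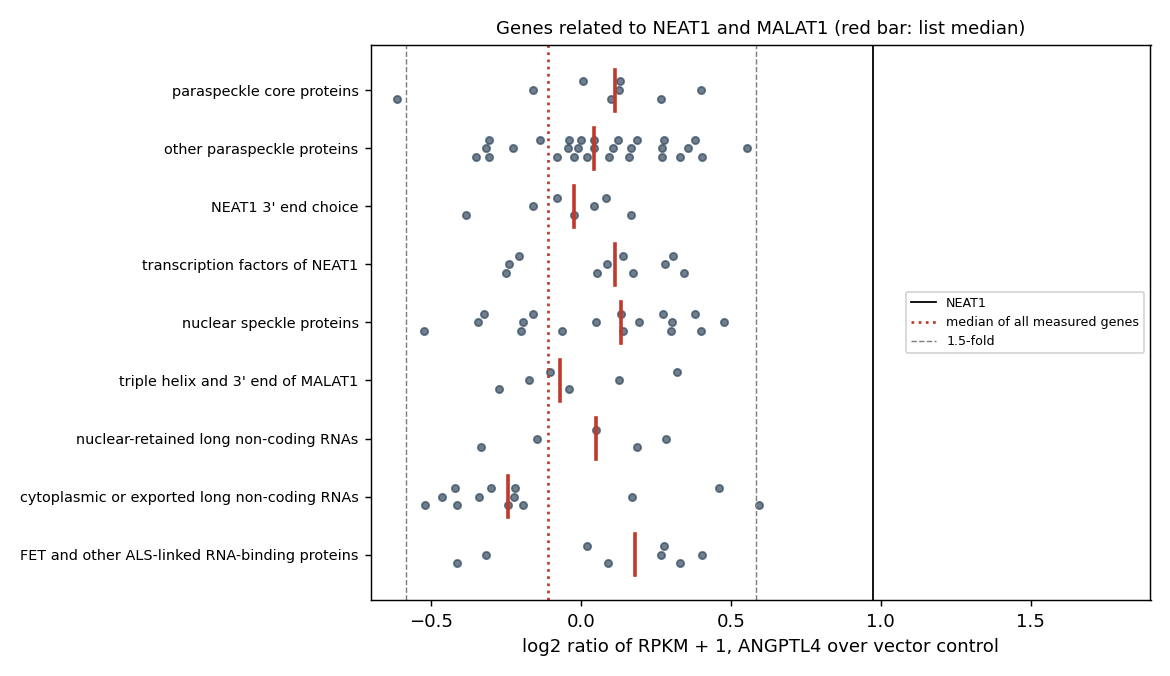
Log2 ratio of RPKM + 1, ANGPTL4 over vector control, of each measured gene (points) in 9 lists of genes related to NEAT1 and MALAT1, with list medians as red bars. Every point lies to the left of the line at 0.97 for NEAT1, by whose level the set was chosen, and list medians run from -0.25 to 0.18.

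The 3 genes nearest to NEAT1 in both libraries, by distance on the log2(RPKM + 1) scale, were POLR2J, TPM2 and PLP2. POLR2J, a subunit of RNA polymerase II with near-identical copies that make its reads uncertain, was at 71.7 RPKM in the ANGPTL4 library and 46.5 RPKM in the vector control library, a distance of 0.29. TPM2 and PLP2 lay at distances of 0.33 and 0.35. Likeness over 2 libraries is a weak measure, and the log2 ratio of each of the 3 was below that of NEAT1, as was that of most measured genes.

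Promoter windows from RefSeq (GRCh38.p14, from 250 bases before to 50 bases after a start) were found for MALAT1, NONO, PSPC1 and TARDBP, and were searched on both strands for 5 motifs. NONO held 3 matches of CCAAT, the CCAAT box, which 34.6% of all 35116 windows hold. The window at the downstream of the MALAT1 starts held TATAAA, the TATA box, as do 11.5% of windows, and TARDBP held ACGTG, the core of the hypoxia response element, as do 21.4%. The heat shock element core GAANNTTC, held by 6.77% of windows, was not among the letters of these windows. The same was true of the cAMP response element TGACGTCA, held by 1.85%. A match is a description of the sequence only.

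The depths inferred from the RPKM values were 3233596 reads (ANGPTL4) and 6572767 reads (vector control). They are the smallest totals that fit, and every number of reads given here rests on them. ANGPTL4 itself was at 91.2 RPKM in the ANGPTL4 library and 3.92 RPKM in the vector control library, as the labels state, with plasmid and chromosomal reads not separated. Of the 12 urothelial and epithelial markers 11 were measured, 4 higher and 7 lower with ANGPTL4. None passed 1.5-fold, and their median log2 ratio was -0.12. Among the higher ones KRT5 was at 468.9 RPKM in the ANGPTL4 library and 434.2 RPKM in the vector control library. UPK3A was listed at 0 in both. Summed levels of the 8 fibroblast markers were 4.73 RPKM with ANGPTL4 and 4.79 RPKM in the control, those of the 8 leukocyte markers 3.13 RPKM and 4.46 RPKM, and those of 5 endothelial markers 0.927 RPKM and 0.601 RPKM. PTPRC was at or near 0 in both libraries. Reads of the 13 mitochondrially encoded genes made up 8.71% of the ANGPTL4 library and 5.11% of the vector control library. All 13 were higher with ANGPTL4, 8 of them past 1.5-fold and 3 past 2-fold, with a median log2 ratio of 0.74. MT-ND2, MT-ND6 and MT-ATP8, with log2 ratios of 1.01, 1.22 and 1.94, exceeded NEAT1. Their share enters every RPKM value, and rescaling without them, ribosomal protein genes and small RNAs left NEAT1 at a log2 ratio of 1.02.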

How the data were processed

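Total RNA of 2 libraries was sequenced, 1 per transfection, extracted with TRIzol per the labels' protocols. Per the file headers, the authors deposited 1 RPKM value for each gene row. The submitters' processing notes name hg19 as the build. The aligner, counting program, annotation release, library preparation, use of strand and treatment of reads that match several loci are not given in the sources used here. Overlapping or similar genes can therefore gain or lose each other's reads.

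Rows of 1 symbol were summed. Depth was taken as the smallest total at which the values of all 13 mitochondrially encoded genes become whole reads (tolerance 0.0001). Exon lengths were those at which both libraries give whole reads (tolerance 1e-05), and the GENCODE 29 length was used where it was among them, otherwise the smallest length. Ratio intervals are exact 95% binomial intervals given both depths, those of levels exact Poisson intervals, and those of ratios between members conditional exact intervals. Such intervals cover counting error only. The log2 ratio has a pseudocount of 1, which understates differences of low genes, and measured means at least 1 RPKM in a library. With 1 library per group no test was made. Procedures were tested on simulated libraries. Python 3.11.15, numpy 2.4.6, pandas 2.3.3 and scipy 1.17.1 were used.

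The members and gene lists were chosen with earlier results of these data known. The text names the 6 members, the 2 measured genes at either end of each list of related genes, measured rows within 100 kb of NEAT1 or MALAT1, and the 3 genes nearest to NEAT1. Some genes that this rule names are not reported here or plotted by name. Genes named besides, such as SMARCA4, NUDT21 and the markers, were chosen after their values were seen. Promoter windows were matched for 4 of the 6 members. As alternatives, the pseudocount was set to 0.1 or 5, the minimum was dropped or raised to 5 RPKM, 3 other scalings were used, and ratios were centred by exon length.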

Additional observations from a re-analysis of the deposited data

How the results depend on the processing

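With 1 library per group, no library could be left out. No paired analysis was possible because each group has 1 library. The log2 ratio of NEAT1 stayed between 0.91 (pseudocount of 5) and 1.14 (upper quartile scaling) under all 6 alternatives, on either side of the 2-fold line. Those of SFPQ, NONO and TARDBP stayed above 0, while MALAT1 ranged from -0.0071 to 0.16 and PSPC1 from -0.15 to 0.020, so neither has a settled direction. Outside the counting interval lay SFPQ at 0.26, NONO at 0.30 and TARDBP at 0.33 with upper quartile scaling, and NONO at 0.24 centred on the median gene and 0.28 centred on its bin of exon length. The counts of some lists moved with scaling too. Of 7 factors of the NEAT1 form choice, 3 were higher in the report. That became 5 when centred on the median gene or by exon length, and 6 with upper quartile scaling. Of 6 proteins of the MALAT1 end, 2 were higher in the report and 4 under each of these settings. Of 11 epithelial markers 4 were higher, and 7 with upper quartile scaling. The leading direction in these lists is therefore not settled.

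The number of genes called over the whole table depended strongly on the setting. At least 1.5-fold higher and lower were 600 and 1647 genes with a pseudocount of 0.1, 75 and 309 with a pseudocount of 5, and 108 and 667 with a minimum of 5 RPKM, against 364 and 1092 in the report. They were 548 and 695 when centred on the median gene and 586 and 641 with upper quartile scaling, so the split between directions depends on the scaling. At least 2-fold higher and lower were 284 and 532 with a pseudocount of 0.1, 15 and 26 with a pseudocount of 5, and 34 and 126 with a minimum of 5 RPKM. Lower by 2-fold were 139 when centred on the median gene and 135 with upper quartile scaling. Centring by exon length also leaves out 1103 genes without a GENCODE length. Among the 10698 that remain, a set counted after the data were seen, 177 were higher and 936 lower by 1.5-fold before centring, and 339 and 527 after it. By 2-fold, 45 were higher and 167 lower before centring, and 69 and 88 after it. Without mitochondrial reads, NEAT1 held at least 0.0167% of reads in the ANGPTL4 library. The inferred depth, 2.03 times greater in the vector control library, limits low genes such as CRNDE most.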

Other observations

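The mismatch between the NEAT1 and MALAT1 values and their annotated lengths was not confined to them. Of 10644 measured genes with 1 row and a GENCODE 29 exon length, 57.9% gave whole reads in both libraries at that length (tolerance 0.0001), as did 80 of 165 long non-coding genes (48.5%). Of the 6 members, SFPQ and NONO did. TARDBP gave whole reads at 4622 bases and 9244 bases, where the GENCODE exon length is 6071 bases.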
